A study of Drosophila melanogaster with 82 samples.

Results

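Transcripts whose ribosome-bound messenger RNA was lower on restricted food in fat body and gut and higher in neurons were described in adult female Drosophila melanogaster. There were 104 of them among the 16637 transcripts of the array. They were chosen by their own diet changes: for each tissue the mean of the restricted-food pools minus the mean of the rich-food pools was taken on the log2 scale, and a transcript was kept where this difference was below -0.4 in fat body and in gut and above 0.4 in neuron. Members were ranked by the smallest of the 3 differences, and the limit of 150 members set for the list was not reached. The 3 differences that selected the members are therefore given as a description, without a test. Tests are given only for germ line, heart, muscle and tubule, whose values the choice did not use.

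The study compared dietary restriction (DR, food with 0.5% yeast extract) with rich feeding (AL, 5% yeast extract), both given for 10 days to flies raised on stock food and collected at 13 days of age. Each fly line carried UAS-RpL13A-His6FLAG, a tagged protein of the large ribosomal subunit that is made only where a GAL4 driver is active, and ribosomes with their messages were pulled down from whole-fly extracts through the tag. The DR and AL groups of a tissue shared 1 genotype and differed in food. The drivers were S106-GS-GAL4 for fat body, MYOIA-GAL4 for gut, C155-GAL4 for neuron, NGT-GAL4 for germ line, HAND4.2-GAL4 for heart, MHC-GAL4 for muscle and C42-GAL4 for tubule. The labels give the fat body line as +/+; S106-GS-GAL4/+; UAS-RpL13A-His6FLAG/+, the muscle line as +/+; +/+; MHC-GAL4/UAS-RpL13A-His6FLAG and the neuron line as C155-GAL4/+; +/+; UAS-RpL13A-His6FLAG/+. A sample is 1 array of 1 pool of about 100 females, or 200 for neuron. There were 5 pools in heart AL and in neuron AL and 6 in each other group. What is called a tissue here is therefore the set of cells in which the driver was active. The marker genes of the tissues were not analysed here, because the identifiers of the table were not paired with gene names.

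The fat body of the fly stores fat and glycogen and secretes proteins into the blood, and with the gut it is the main site where dietary amino acids and sugars are taken up and sensed. Less yeast in the food lowers signalling through insulin and the target of rapamycin in these organs, which in turn lowers the rate of translation. In larvae the growth of the nervous system is known to be spared when poor food limits that of other organs. The Malpighian tubule, the fly's excretory organ, shares many transport and detoxification genes with the gut. None of the 104 members was paired with a gene name here, so they are given by transcript identifier and no role is stated for any of them. Of all transcripts, 16 were paired with 1 gene and 28 with several.

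Opposite changes of this kind were uncommon next to changes shared by the 3 tissues. At the same threshold of 0.4 in each of fat body, gut and neuron, 1111 transcripts were lower on DR food in all 3 tissues and 1213 were higher in all 3. The mirror image of the described set, higher in fat body and gut and lower in neuron, held 122 transcripts. The other 4 combinations of directions held 19, 54, 49 and 19 transcripts.

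Among the 104 members the diet change of fat body ranged from -4.84 to -0.40, with a median of -0.97 (log2, DR minus AL). Over all transcripts the median change in fat body was 0.02. In gut the members ranged from -3.71 to -0.40 with a median of -0.70, and all transcripts had a median of 0.02. In neuron they ranged from 0.40 to 3.22 with a median of 0.98, and all transcripts had a median of -0.11. A change of at least 2-fold was reached by 51 members in fat body, 31 in gut and 50 in neuron. The gut change was the smallest of the 3 for 53 members, the neuron change for 28 and the fat body change for 23. At the threshold, the last members kept, ranks 102 to 104, had a smallest change of 0.405, 0.401 and 0.401, and the first transcripts left out had 0.398, 0.397 and 0.390. The values had been scaled to a common distribution for each tissue, so a change is relative to the other messages pulled down. In a pulldown from whole flies, fewer cells of a type among those with the driver active and less message per cell cannot be told apart.

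**Figure D1:**
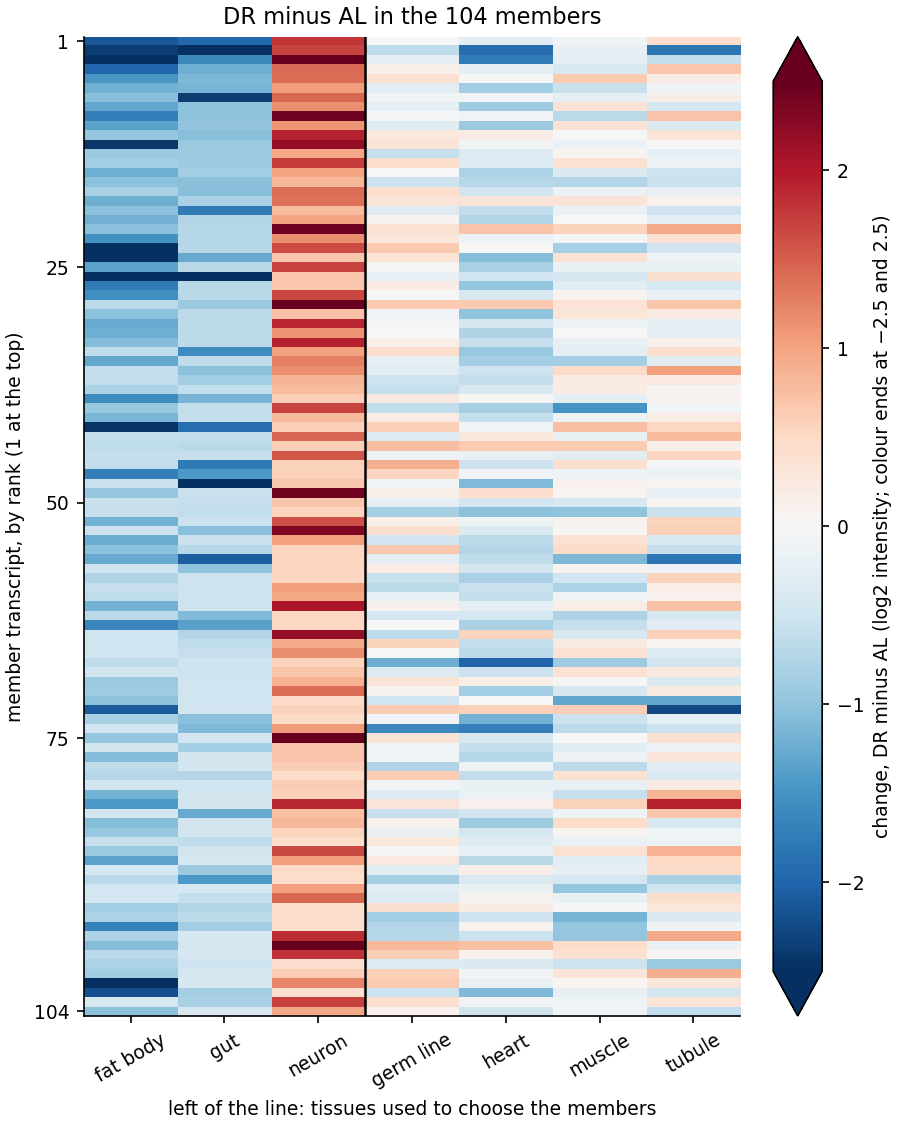
Diet change (DR minus AL, log2 intensity, colour) of the 104 members in 7 tissues, 1 row for each member in order of rank. Fat body and gut are blue and neuron is red by the choice of members; right of the line the colours are mixed, and blue prevails in heart, where 84 members were below 0.

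The pools behind these changes were separated, with every DR pool beyond every AL pool, for 70 members in fat body, 70 in gut and 71 in neuron, and 42 members were separated in all 3. All 8 probes of the transcript lay on the same side as the transcript's mean change for 94 members in fat body, 96 in gut and 83 in neuron. Both sets of counts come from the values that chose the members. They are a description, not support, and were not made over all transcripts for these 3 tissues. The random-sequence control probes of each array give a level at which no message is measured, taken here as their 95th percentile. For 8 members the level was below it on both foods, in every pool, in at least 1 of the 3 tissues that chose them: 6 members in fat body, 2 in gut and 2 in neuron. The other 96 members were above the control probes in some pool of each of the 3 tissues. In fat body 15 members were above the controls in no DR pool, against 7 in no AL pool, and in neuron this held for 2 members on DR and 9 on AL food. The control level itself had a lower median on DR than on AL food in each tissue except tubule, in heart 6.87 against 7.63.

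Several arrays stood apart from their group. The median correlation with the other arrays of the group, over all transcripts, was 0.852 for germ line DR pool 6, 0.942 for muscle DR pool 4, 0.945 for neuron DR pool 5 and 0.968 for tubule AL pool 4. Also below 0.968 were germ line DR pools 1, 2, 4 and 5 (0.952, 0.963, 0.963 and 0.947) and neuron DR pool 1 (0.962). Without neuron DR pool 5 the same rule gave 97 members, and with each of the 35 arrays of fat body, gut and neuron left out in turn it gave 94 to 115. Neuron AL arrays had a mean profile that correlated at 0.900 with neuron DR, below the 0.934 with germ line AL, the 0.928 with heart AL and the 0.916 with muscle AL. These correlations are over transcripts on the deposited values, which had been scaled for each tissue, so differences in scaling between tissues enter them. The part this likeness has in the neuron changes was not tested.

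The first member by rank, FBtr0289942, was measured above the control probes in every pool of every group. In fat body its level ran between 8.39 and 9.94 in DR pools (median 8.97) and between 10.90 and 11.50 in AL pools (median 11.18). In gut it ran between 9.44 and 10.56 in DR pools (median 9.78), against 11.55 to 11.97 in AL pools (median 11.88). The neuron pools lay the other way round, at 10.07 to 11.24 on DR food (median 10.89) and at 8.46, 8.81, 8.94, 9.15 and 9.24 on AL food. No pool of one food overlapped the other in these 3 tissues, and the differences of -2.15, -1.96 and 1.79 (log2) correspond to 4.43-fold, 3.90-fold and 3.45-fold. In the 4 other tissues its DR and AL pools overlapped and no difference passed the test: the change was -0.02 ± 0.19 in germ line (SE, limma adjusted p = 0.932), -0.26 ± 0.20 in heart (adjusted p = 0.259), -0.10 ± 0.19 in muscle (adjusted p = 0.669) and 0.41 ± 0.19 in tubule (adjusted p = 0.0715). Tubule AL pool 4, which stood apart, held its lowest tubule value of 9.09.

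FBtr0113347, second by rank, had the largest gut change of all members. Its gut level was 6.94 to 7.87 in DR pools (median 7.20), against 10.87 to 11.06 in AL pools (median 10.98), a difference of -3.71. Of the gut DR pools 4 of 6 were above the control probes, so no exact fold is given. In fat body the DR pools, at 5.81 to 6.77 (median 6.19), were all below the control probes. The AL pools spread from 7.0 to 9.59 (median 8.97), and 4 of 6 were above the control probes. Its fall there against the control level was 2.37-fold, which is not a strict bound because not every AL pool was measured. A value of this kind sets the mean of the group measured in some or all pools against the control level of the arrays on which the transcript was not measured. Neuron pools ran from 10.44 to 11.70 on DR food (median 11.06) and were 8.73, 9.10, 9.46, 9.63 and 9.68 on AL food.

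Outside the tissues that chose it, FBtr0113347 also fell on DR food. Heart DR pools were at 6.97 to 7.28 (median 7.17), against 8.72, 8.92, 9.20, 9.22 and 9.30 in heart AL pools, a change of -1.91 ± 0.23 (SE, limma adjusted p = 3.51e-10). Tubule DR pools were at 5.97 to 6.48 (median 6.43) and above the control probes in none of 6. Tubule AL pools were at 7.59 to 8.65 (median 8.27) and above them in 5 of 6. The fall against the control level was 1.47-fold, likewise not a strict bound (limma adjusted p = 1.97e-10). In germ line the change was smaller, at -0.64 ± 0.22 (adjusted p = 0.00906), and in muscle it was -0.21 ± 0.22 (adjusted p = 0.423). Neuron was the only one of the 7 tissues in which its mean was higher on DR food.

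**Figure D2:**
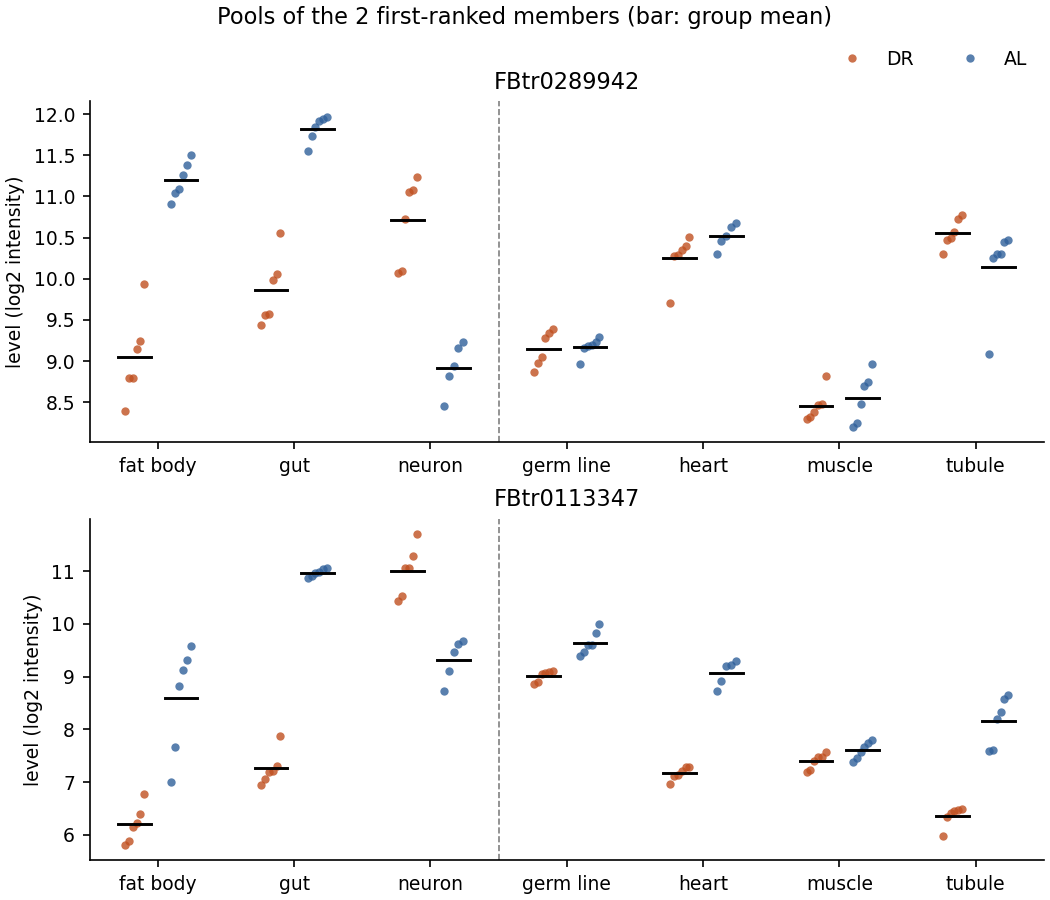
Level (log2 intensity as deposited) of FBtr0289942 and FBtr0113347 in each pool, by tissue, with DR pools left and AL pools right, and the group mean as a bar; the dashed line divides the 3 tissues used to choose the members from the others. FBtr0289942 has overlapping pools right of the line, whereas the DR pools of FBtr0113347 lie below the AL pools in germ line, heart and tubule.

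On a scale shared by all 82 arrays (quantile normalization, so that levels of 1 transcript can be compared between tissues), the members as a group lay high in gut, fat body and tubule. Their median level was 10.70 in fat body DR and 11.74 in fat body AL, 11.16 in gut DR and 12.03 in gut AL, and 10.48 in neuron DR and 9.04 in neuron AL. In the tissues not used for the choice it was 9.02 in germ line DR and 9.21 in germ line AL, 10.33 in heart DR and 10.84 in heart AL, 9.0 in muscle DR and 9.23 in muscle AL, and 11.03 in tubule DR and 10.84 in tubule AL. The gap between tissues was narrow on DR food and wide on AL food: the member-wise difference gut minus neuron had a median of 0.27 on DR and 2.40 on AL food, and was above 0 for 63 members on DR and 95 on AL. Fat body minus neuron had a median of -0.22 on DR and 1.85 on AL food. This narrowing follows in direction from the way the members were chosen, and only its size is a description of them.

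**Figure D3:**
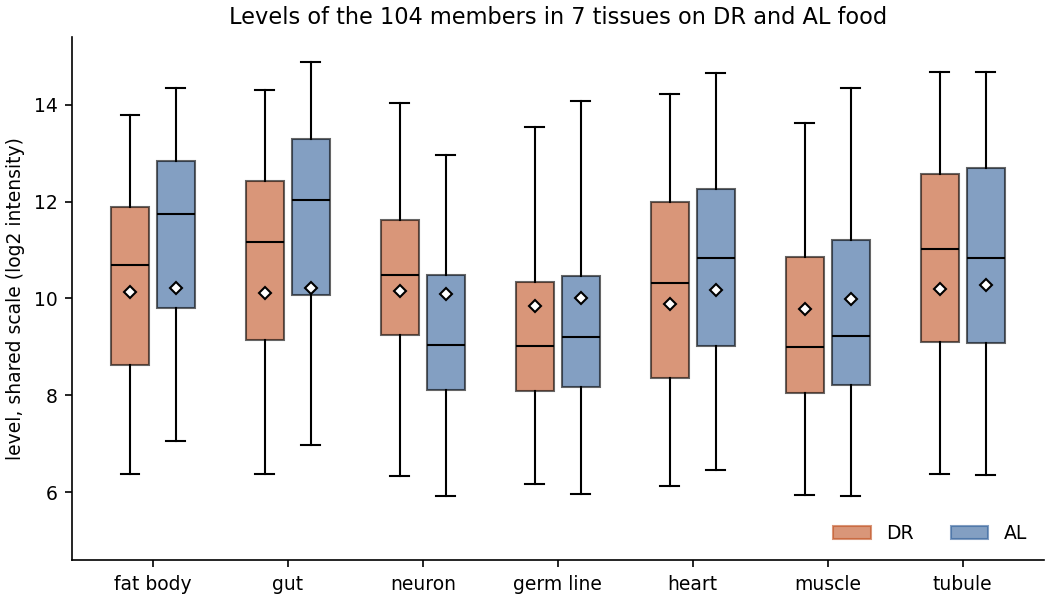
Level of the 104 members (log2 intensity on the shared scale) by tissue, DR left and AL right; boxes give the quartiles and median, whiskers the lowest and highest member, and diamonds the median of all transcripts. The member median in neuron is 10.48 on DR food, near those of fat body DR and heart DR, and 9.04 on AL food, below that of all transcripts.

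Averaged over both foods, a member was most often highest in gut. Gut held the highest level of 44 members (42.3%, against 10.9% of all transcripts), tubule of 26 (25%, against 12.7% of all), neuron of 9, fat body of 8, heart of 8, germ line of 5 (4.81%, against 27.4% of all) and muscle of 4. A lead of at least 2-fold over every other tissue was less common: it was held by 10 members in gut, 7 in tubule, 3 in fat body, 3 in neuron and 1 in muscle, and 80 had none. On DR food alone tubule was highest for 32 members, gut for 30, neuron for 16 and fat body for 9. On AL food alone gut was highest for 51 members, tubule for 21, fat body for 12 and neuron for 4. That gut and fat body gain on AL food and neuron on DR food follows in direction from the choice of members. The counts for each food alone were not made over all transcripts. The members' mean level over all groups lay at a median percentile of 53.5 among all transcripts, with quartiles of 39.4 and 73.2.

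Heart was the tissue outside the choice in which the members most often moved. There 56 of the 104 were lower on DR food by limma's moderated test (53.8%, adjusted p below 0.05, Benjamini-Hochberg over all 16637 transcripts), against 27.1% of all transcripts, and 5 were higher (4.81%, against 25.1% of all). The median heart change of the members was -0.45 (log2, 1.37-fold), against -0.03 for all transcripts, with 84 members below 0 and 20 above. Every DR pool was below every AL pool for 51 members, against 26.9% of all transcripts, and above for 6, against 21.1% of all. The mean level of the members per pool was 9.66 to 9.96 in heart DR (9.85 ± 0.10, SD, n = 6) and 10.23 to 10.33 in heart AL (10.27 ± 0.04, SD, n = 5), with no overlap. At least 6 of the 8 probes lay below 0 for 53 of the 56 members that fell, and all 8 for 35.

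The share that fell in heart has to be read against the tissue in which a transcript is highest. Of all 1819 transcripts highest in gut, 50.5% were lower in heart on DR food, and of the 44 members highest in gut 26 were (59.1%), with a median change of -0.47 against -0.32. Of all 2110 transcripts highest in tubule 32.3% were lower in heart, and of the 26 such members 10 (38.5%). In fat body, 5 of the 8 members highest there were lower in heart (62.5%, against 52.2% of all such transcripts). In these 3 classes, of which that of fat body held only 8 members, the members lay nearer to the other transcripts than in the comparison with the whole array. In the other 4 classes, of 4 to 9 members each, this did not always hold. Of the 8 members highest in heart 7 were lower in heart (87.5%, against 26.7%), and of the 4 highest in muscle 3 (75%, against 15.5%). Of the 9 highest in neuron 4 were lower in heart (44.4%, against 25.1%), and of the 5 highest in germ line 1 (20%, against 11.3%). The 1111 transcripts lower on DR food in fat body, gut and neuron alike were lower in heart in 65.9% of cases, and the 122 of the mirror-image set were lower in 9.02% and higher in 49.2%. The differences between these sets were not tested.

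Of the 56 members that fell in heart, 19 had no call in germ line, muscle or tubule, 32 were also lower in at least 1 of these and 11 were higher in at least 1. Such joint calls were not counted over all transcripts. Over all transcripts the heart change correlated at 0.75 with that of germ line, 0.73 with muscle and 0.44 with tubule. FBtr0082396 had the largest heart fall. It was below the control probes in every heart DR pool, at 5.94 to 6.58 (median 6.19), and above them in every heart AL pool, at 8.09, 8.16, 8.21, 8.22 and 8.45. The control level had a median of 6.87 in heart DR and 7.63 in heart AL arrays. Set against the level of the DR arrays, with no allowance for this gap, FBtr0082396 fell by at least 2.69-fold (limma adjusted p = 1.21e-07). It was also lower in germ line, by -1.21 ± 0.29 (adjusted p = 0.000246), where DR pools spread from 7.49 to 9.90 (median 8.42) against 9.41 to 10.07 in AL pools (median 9.83), and in muscle (-0.88 ± 0.29, adjusted p = 0.0084). Its membership rests on weak neuron values: DR pools were at 6.03 to 8.93 (median 6.41) and AL pools at 6.27, 6.39, 6.41, 6.50 and 6.60, all below the control probes of their arrays. The highest probe number of this transcript was 13, the lowest among the members, against a median of 1188.5 over the members and 1024 over all transcripts. The number ends each probe's identifier, and its meaning is not given in the sources used here.

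The 5 members higher in heart were named after their values were seen: FBtr0082780, FBtr0089599, FBtr0083790, FBtr0084780 and FBtr0071335. Of these, FBtr0089599 was above the control probes in only 1 of 5 heart AL pools, and in 6 of 6 heart DR pools. FBtr0071335 stood at 9.78 to 10.27 in heart DR pools (median 10.06), against 9.23, 9.28, 9.35, 9.37 and 9.38 in heart AL pools, a change of 0.73 ± 0.17 (limma adjusted p = 0.000281). Its pools in germ line were likewise apart, at 10.89 to 11.32 on DR food (median 11.04) and 10.16 to 10.36 on AL food (median 10.20), a change of 0.83 ± 0.16 (adjusted p = 1.06e-05). In neuron it had one of the larger changes of the set, with DR pools at 12.95 to 13.70 (median 13.56) and AL pools at 9.99, 10.08, 10.26, 10.31 and 10.47, a difference of 3.20. Its tubule level was high on both foods and did not pass the test (-0.14 ± 0.16, adjusted p = 0.543).

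FBtr0082780 was the 1 member called higher on DR food in all 4 tissues. Heart DR pools ran from 11.32 to 11.87 (median 11.61), against 10.71, 10.85, 10.89, 10.92 and 11.19 on AL food (0.72 ± 0.16, limma adjusted p = 0.000172). Tubule DR pools ran from 13.15 to 13.29 (median 13.18), against 10.98 to 12.75 on AL food (median 12.42), a change of 0.95 ± 0.15 (adjusted p = 3.56e-07). It rose by less in muscle (0.56 ± 0.15, adjusted p = 0.00196) and in germ line (0.38 ± 0.15, adjusted p = 0.0232), where its pools overlapped. Without germ line DR pool 6 the germ line change was 0.25 (adjusted p = 0.133), and without tubule AL pool 4 the tubule change was 0.70 (adjusted p = 6.59e-06). In fat body and gut its pools were also apart, but in the other direction, by -1.05 and -0.72. It was thus lower in those 2 tissues and higher in the other 5.

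In germ line the members were split evenly. 23 were higher on DR food (22.1%, against 34.2% of all transcripts) and 24 were lower (23.1%, against 36.8% of all), and the median change was -0.02, as it was for all transcripts. DR pools were wholly above AL pools for 2 members, FBtr0071335 and FBtr0089599, against 8.13% of all transcripts, and wholly below for 10, against 8.11% of all. Without germ line DR pool 6, the array that stood furthest apart, 22 were higher and 28 lower. Without germ line DR pool 1, 14 were higher, and without pool 2 or pool 3, 15. With the germ line arrays fitted alone, 17 were higher (16.3%, against 25.2% of all transcripts) and 27 lower (26%, against 33.4% of all).

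FBtr0082762 had the largest fall in germ line. DR pools were at 8.88 to 10.08 (median 9.16), with pool 6 the highest, and AL pools at 10.68 to 11.16 (median 10.83), a change of -1.61 ± 0.20 (limma adjusted p = 3.22e-10). It was also lower in heart, where DR pools at 6.42 to 6.89 (median 6.79) were above the control probes in 2 of 6 and AL pools stood at 7.83, 8.29, 8.47, 8.67 and 8.70 (-1.70 ± 0.21, adjusted p = 2.51e-10). FBtr0113167 fell in germ line by -0.83 ± 0.23 (adjusted p = 0.00135), with DR pools at 9.58 to 10.37 (median 10.01) and AL pools at 10.53 to 11.12 (median 10.79). This transcript was lower by a like amount in heart (-1.02 ± 0.24, adjusted p = 0.000317) and muscle (-1.01 ± 0.23, adjusted p = 0.000193).

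FBtr0089599 rose in germ line, with DR pools at 9.03 to 9.56 (median 9.15) and AL pools at 8.45 to 8.76 (median 8.52), a change of 0.66 ± 0.17 (limma adjusted p = 0.00061). With cyclic loess scaling within each tissue on top of the deposited values, the same change was 0.23 (adjusted p = 0.231). In neuron it differed by 2.81, with DR pools at 9.78 to 11.27 (median 10.98) and AL pools at 7.51, 7.69, 7.74, 8.09 and 8.45. Its fat body pools, at 5.67 to 6.14 on DR food and 6.36 to 6.84 on AL food, were below the control probes in every pool, so the fat body difference that helped to choose it has no fold.

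In muscle more members were called lower than higher. 14 members were higher on DR food (13.5%, against 27.8% of all) and 27 lower (26%, against 27.3% of all), with a median change of -0.14 against 0.07 over all transcripts. DR pools were wholly above AL pools for 4 members, against 8.03% of all transcripts, and wholly below for 13, against 18.2% of all. Without muscle DR pool 4 the counts were 11 higher and 31 lower. FBtr0081183 fell the most: DR pools were at 7.87 to 8.98 (median 8.27) and AL pools at 9.39 to 10.14 (median 9.91), a change of -1.47 ± 0.16 (limma adjusted p = 2.02e-11). It was also lower in heart, with DR pools at 11.23 to 11.91 (median 11.62) against 12.28, 12.41, 12.53, 12.53 and 12.54 on AL food (-0.83 ± 0.17, adjusted p = 4.49e-05), while its tubule change of -0.08 ± 0.16 did not pass the test (adjusted p = 0.767).

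FBtr0086734 fell in muscle and in tubule by nearly the same amount. Muscle DR pools were at 9.54 to 10.12 (median 9.93), against 11.02 to 11.34 on AL food (median 11.17), a change of -1.31 ± 0.18 (limma adjusted p = 5.96e-09). Tubule DR pools were at 8.16 to 8.67 (median 8.41), against 9.31 to 11.28 on AL food (median 9.44), a change of -1.30 ± 0.18 (adjusted p = 4.36e-09), or -0.98 without tubule AL pool 4 (adjusted p = 1.85e-08). In heart the change was 0.00 ± 0.18 (adjusted p = 0.989), with DR and AL pools overlapping. FBtr0073377, of rank 5, rose in muscle, with DR pools at 12.03 to 12.47 (median 12.24) and AL pools at 11.05 to 11.81 (median 11.67), by 0.66 ± 0.17 (adjusted p = 0.00131). Its lowest level in any pool of the 14 groups was 10.62, in fat body DR.

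In tubule, where the levels of many members were as high as in gut, calls lay in both directions. There 17 members were higher on DR food (16.3%, against 20.4% of all transcripts) and 20 lower (19.2%, against 19.4% of all), with a median change of -0.02 against -0.01 for all transcripts. Of the members, 12 were above the control probes in no tubule pool on either food, and 4 more in no tubule DR pool. This was not counted over all transcripts. FBtr0089599, called higher (0.70, limma adjusted p = 0.00048), was 1 of the 12. DR pools lay wholly above AL pools for 16 members, against 17% of all, and wholly below for 9, against 15.2% of all. These counts lean on 1 array: without tubule AL pool 4, 12 members were higher and 27 lower. The mean level of the members was 10.57 to 10.65 in tubule DR pools, against 9.96 in that AL pool and 10.72 to 10.78 in the other 5 tubule AL pools, so that without it every AL pool was above every DR pool. Of the 1111 transcripts lower in fat body, gut and neuron alike, 87.8% were lower in tubule, with a median change of -1.11.

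FBtr0076923 had the largest rise in tubule. DR pools were at 10.54 to 10.88 (median 10.78), against 8.26 to 9.16 on AL food (median 8.86), a change of 1.95 ± 0.14 or 3.87-fold (limma adjusted p = 2.49e-19), and 1.84 without tubule AL pool 4. In neuron it was higher by a like amount, with DR pools at 10.93 to 12 (median 11.81) and AL pools at 9.50, 9.51, 9.81, 9.82 and 9.98, whereas fat body differed by -1.43 and gut by -0.46. It also rose in muscle, with DR pools at 9.84 to 10.11 (median 10.02) and AL pools at 9.30 to 9.54 (median 9.41), by 0.57 ± 0.14 (adjusted p = 0.000616). Its heart change was 0.11 ± 0.15 (adjusted p = 0.548).

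FBtr0081031 went the other way in tubule, with DR pools at 9.37 to 10.56 (median 10.29) and AL pools at 11.60 to 12.91 (median 12.54), a change of -2.26 ± 0.26 or 4.80-fold (limma adjusted p = 2.3e-11). It was higher in germ line (0.63 ± 0.26, adjusted p = 0.0261) and muscle (0.61 ± 0.26, adjusted p = 0.0401), with overlapping pools in both. FBtr0082397 rose in tubule by 0.95 ± 0.21 (adjusted p = 0.000152), with DR pools at 10.83 to 11.27 (median 11.17) and AL pools at 9.18 to 10.55 (median 10.32). Without tubule AL pool 4 its change was 0.76. It was lower in germ line (-0.71 ± 0.21, adjusted p = 0.00303), heart (-0.53 ± 0.22, adjusted p = 0.0404) and muscle (-0.98 ± 0.21, adjusted p = 0.000105).

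**Figure D4:**
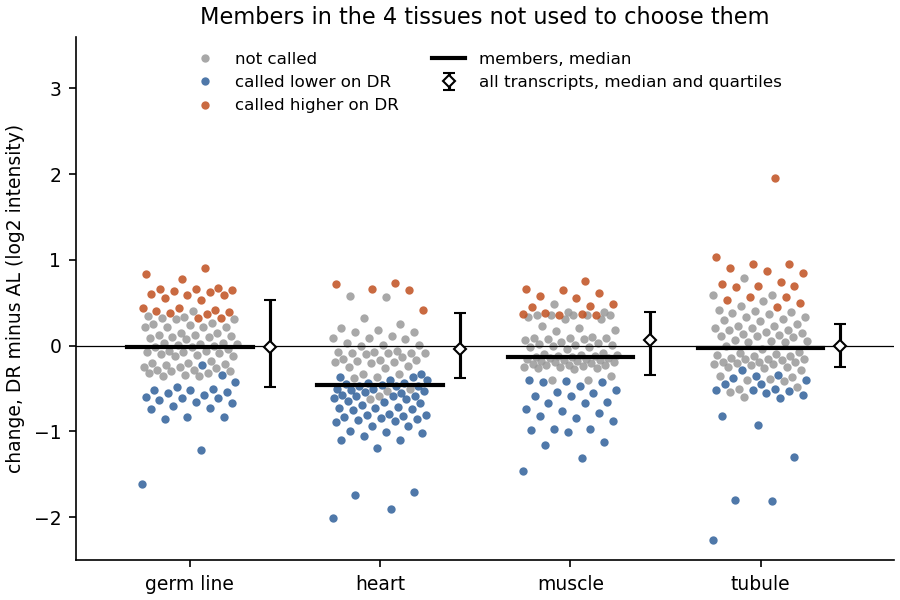
Diet change (DR minus AL, log2 intensity) of each of the 104 members in germ line, heart, muscle and tubule, coloured by limma's call, with the member median as a bar and the median and quartiles of all transcripts as a diamond with whiskers. In heart 56 members are called lower and 5 higher; in the other 3 tissues calls lie on both sides of 0.

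Over the 4 tissues together, 69 members had diet changes that differed among the tissues by limma's moderated F test (66.3%, against 59% of all transcripts). No call was made in any of the 4 for 13 members, and calls were made in 1 tissue for 34 members, in 2 for 29, in 3 for 18 and in all 4 for 10. Of these members 51 were called lower only, 24 higher only and 16 in both directions. The 5 lower in all 4 tissues, named after their values were seen, were FBtr0077559, FBtr0083484, FBtr0082762, FBtr0080624 and FBtr0082715. For these 5, neuron was the only one of the 7 tissues in which DR food went with a higher level, which follows from how the members and these 5 were chosen. Another 4, also named after their values were seen, were lower in heart and higher in tubule: FBtr0077008, FBtr0076360, FBtr0073497 and FBtr0082397. Such patterns of calls were not counted over all transcripts, so these counts describe the members and do not set them apart from the array.

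**Figure D5:**
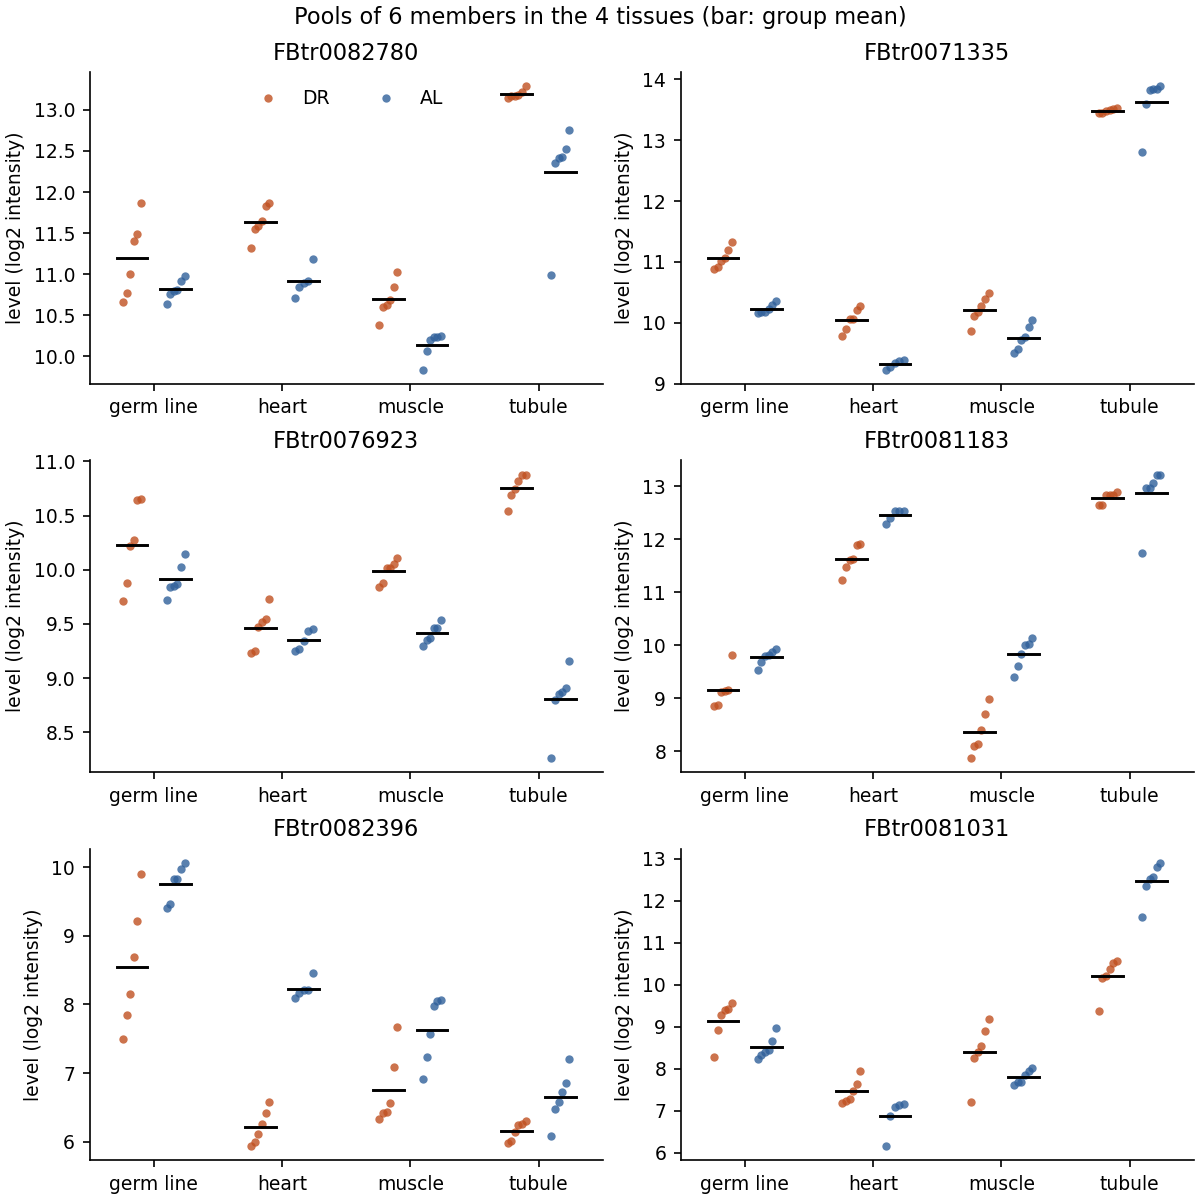
Level (log2 intensity as deposited) in each pool of 6 members, in the 4 tissues that the choice did not use, DR left and AL right, with group means as bars. The mean of FBtr0082780 is higher on DR food in all 4 tissues, FBtr0076923 has its widest gap in tubule, FBtr0081183 in muscle, FBtr0082396 in heart and FBtr0081031, lower on DR food, in tubule.

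The last member kept shows what lies at the threshold. FBtr0080362 had gut DR pools at 8.26 to 8.83 (median 8.54) and gut AL pools at 8.68 to 9.29 (median 8.94), which overlap, and its neuron DR pools, at 10.39 to 12.35, overlapped AL pools at 10.19, 10.20, 10.24, 10.25 and 10.67. It was lower in heart (-0.50 ± 0.20, limma adjusted p = 0.0291) and tubule (-0.61 ± 0.19, adjusted p = 0.0066), the second of which did not pass without tubule AL pool 4 (-0.36, adjusted p = 0.109). The first transcript left out, FBtr0071924, differed by -0.81 in fat body, -0.40 in gut and 1.85 in neuron, and its neuron pools, at 11.49 to 12.22 on DR food and 9.77, 9.97, 10.10, 10.14 and 10.50 on AL food, did not overlap.

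The members were not 1 tightly correlated group. Over all 82 arrays the 5356 pairs of members had a median correlation of 0.27, with quartiles of -0.04 and 0.54, a description in which all pairs share the tissues and the arrays. In 4 pairs it was above 0.97, and 4 to 7 of the 8 probes of both members were numbered at 1 fixed offset, as for FBtr0113197 and FBtr0113196 (0.997, with 7 of 8 probes at an offset of 18) and for FBtr0083253 and FBtr0113241 (0.993, with 5 of 8 at an offset of 192), and less so for FBtr0100141 and FBtr0076917 (0.981, with 4 of 8). Whether the probes of such a pair share sequence was not tested. Across the 104 members the changes of germ line and muscle correlated at 0.60, those of heart and gut at 0.28, those of heart and fat body at 0.11 and those of neuron and tubule at 0.30. Over all transcripts these correlations were 0.79, 0.53, 0.43 and 0.67. Points of 1 tissue share its arrays and scaling.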

How the data were processed

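Translating messenger RNA was measured on single-colour NimbleGen arrays, 1 for each of 82 pools. The values are linear probe intensities as deposited by the authors; per the labels' protocols, the pulled-down RNA was amplified and labelled with Cy3 before hybridisation. Sorted log2 intensities differed by at most 0.0379 from those of the first array of the same tissue, so the values had been scaled to a common distribution for each tissue. The method of this scaling, the background correction and the scanner are not given in the sources at hand.

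The 132998 probes of transcripts (8 for 16616 of the 16637) were taken to log2 and averaged; 4100 random-sequence probes served as controls. A linear model with 1 mean for each of the 14 groups was fitted to all arrays with limma 3.58.1 under R 4.3.3 (data.table in version 1.17.8), with 68 residual degrees of freedom before moderation, and adjusted p below 0.05 by Benjamini-Hochberg over all transcripts was a call. Tests are two-sided. The labels name each array a separate pool of flies, so p-values measure the spread between pools. This spread is taken once for each transcript over all 14 groups, not for each tissue. FBtr0082396, for example, had an SE of 0.29 in germ line and 0.30 in heart. The SD of its DR pools was 0.90 in germ line and 0.25 in heart. Tables and figures used Python 3.11.15, numpy 2.4.6, pandas 2.3.3 and matplotlib 3.10.9. The fit was tested on simulated data.

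The members, lists and tests were chosen with earlier results of these data known. Of the members, 15 are described by a fixed rule: the first 2 by rank, the last kept, and for each of the 4 tissues up to 2 that rose and 2 that fell by the largest change among called members with separated pools. The first transcript left out is given beside them. Lists of marker and pathway genes were not analysed here, since the gene table used (Release 6) paired no member with a symbol. The precision is limited by the number of arrays.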

Additional observations from a re-analysis of the deposited data

Results flagged for a closer look

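In 70 tests of a group's lowest or highest pool, 10 pools stood far from the others of their group by Dixon's ratio; chance gives about 1 in 20. The mean over the members was 9.96 in tubule AL pool 4. This pool was also low for FBtr0289942 (9.09) and FBtr0082397 (9.18), and it is 1 array counted 3 times. The other values were 9.71 for FBtr0289942 in heart DR pool 6, 8.82 for the same transcript in muscle DR pool 3, 5.97 for FBtr0113347 in tubule DR pool 4, 10.08 for FBtr0082762 in germ line DR pool 6 and 11.05 for FBtr0073377 in muscle AL pool 5. In tubule DR pool 1, FBtr0082397 stood at 10.83 and FBtr0081031 at 9.37. The part of RNA quality or handling in these pools was not tested.

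The diet changes of 9 of the 15 named members differed among germ line, heart, muscle and tubule by limma's moderated F test. By the same test 59% of all transcripts differed. Most of the 15 were named for a large change in 1 of these tissues, so the test is no separate support for them. The adjusted p was 2.74e-06 for FBtr0113347, 0.000984 for FBtr0071335, 0.000114 for FBtr0082762, 0.0113 for FBtr0082396 and 1.83e-11 for FBtr0076923. It was 1.06e-05 for FBtr0081183, 9.78e-06 for FBtr0086734, 5.34e-07 for FBtr0082397 and 8.75e-11 for FBtr0081031. FBtr0076923 was higher in tubule (1.95) and muscle (0.57), and FBtr0081031 was lower in tubule (-2.26) and higher in germ line (0.63) and muscle (0.61).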

How the results depend on the processing

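Heart remained the tissue with the most members lower on DR food under every setting tried: 46 with cyclic loess (44.2%, against 22.3% of all transcripts) up to 65 with array weights (62.5%, against 37.7%), and 48 to 65 with 1 array left out. The other counts depended more on the setting. Higher in germ line numbered 23, but 14 with cyclic loess (13.5%, against 23.3% of all transcripts) and 44 with array weights (42.3%, against 44%). With 1 array left out it numbered 14 to 26. Lower in germ line numbered 24, but 37 with array weights (35.6%, against 46.9% of all), and 20 to 28 with 1 array left out. Array weights gave germ line DR pool 3 a weight of 71.7, and their estimation stopped before convergence. Higher in heart numbered 5, but 3 with the later probes alone (2.88%, against 23.4% of all) and 3 with values floored at the control probes (2.88%, against 14%). It numbered 10 with array weights (9.62%, against 33.2%), 9 with the heart arrays alone (8.65%, against 31.4%) and 4 to 6 with 1 array left out. In muscle 22 were higher with cyclic loess in place of 14 (21.2%, against 26.3% of all). Leaving out 1 array gave 11 to 17 higher and 22 to 31 lower in muscle. In tubule 45 were lower with array weights in place of 20 (43.3%, against 28.5% of all). Leaving out 1 array gave 12 to 20 higher and 16 to 27 lower in tubule. The F test gave 61 to 77. For these F test counts and the counts with 1 array left out, no share of all transcripts is given. In the tissue for which a member was named, no direction reversed under these settings, and 1 call was lost, that of FBtr0089599 in germ line under cyclic loess. The cause of these differences was not tested.

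The rule gave 97 members on quantile-normalized values (96 shared with the 104), 119 with the median of the probes (85 shared), 111 with the later and 105 with the earlier probes (80 and 81 shared) and 84 with values floored at the control probes (83 shared); the settings other than quantile normalization were added after the data were seen. Pools of the same number did not deviate together throughout, with correlations of their deviations between -0.44 and 0.77, and 1 to 3 of the pools of a tissue correlated best with their own number. With the replicate number as a block, 23 members were higher in germ line (22.1%, against 35.6% of all transcripts) and 27 lower (26%, against 37.7%). In heart 6 were higher (5.77%, against 24.2%) and 53 lower (51%, against 26.1%). In muscle 17 were higher (16.3%, against 29.7%) and 27 lower (26%, against 28.4%). In tubule 21 were higher (20.2%, against 21.6%) and 23 lower (22.1%, against 20.9%). With this block 72 differed among the tissues, a count given without a share of all transcripts.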
